A study of Homo sapiens with 24 samples.

Results

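The genes followed here are 8 that keep or write repressive chromatin marks: UHRF1, DNMT1, DNMT3A, DNMT3B and HELLS of the DNA methylation machinery, and EZH2, SUZ12 and EED, the core of Polycomb repressive complex 2 (PRC2). Their probes were chosen by matching the RefSeq accession that the array design gives each probe to the gene. The match found 11 probes of 7 of the 8 genes on each array version, out of 50599 probes on the version used at 24 h and 58201 on the one used at 48 h. No probe was matched to EED, which therefore has no value here. Expression was measured on one-colour Agilent arrays in LNCaP, an established androgen-sensitive prostate cancer cell line. All cells were grown in RPMI-1640 with fetal bovine serum and transfected by electroporation, with 1 of 3 siRNAs: si-A1 against the long non-coding RNA TAPIR-1, si-A2 against its neighbour TAPIR-2, or the scrambled control si-SCRL. Each siRNA was sampled in 4 replicates after 24 h and in 4 after 48 h, which gives 24 arrays. The study's methods call them biological replicates. Each target was knocked down with a single siRNA sequence on these arrays, so an effect of the target and an effect of the sequence cannot be told apart, and the measurements are of RNA from bulk cultures, in which fewer expressing cells and less RNA per cell cannot be told apart either.

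DNA methylation is copied at each cell division. UHRF1 binds the newly replicated, hemimethylated CpG sites and recruits DNMT1, the maintenance methyltransferase, which restores the mark on the new strand, and HELLS (also called LSH) is a nucleosome remodeller that opens chromatin for this step. DNMT3A and DNMT3B set methylation at new sites. PRC2 places methyl groups on lysine 27 of histone H3, with EZH2 as the catalytic subunit and SUZ12 and EED as subunits without which the enzyme does not work, and EZH2 is well known for its high expression in advanced prostate cancer. UHRF1, HELLS, DNMT1 and EZH2 are known to be expressed mainly in dividing cells.

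On GRCh38.p14, the RefSeq annotation places UHRF1 at chr19:4903080-4962154, DNMT1 at chr19:10133346-10194953, HELLS at chr10:94545788-94613905, DNMT3A at chr2:25227874-25342590 and DNMT3B at chr20:32762385-32809356. EZH2 lies at chr7:148807383-148884291, SUZ12 at chr17:31937007-32001038 and EED at chr11:86244753-86287615. The array files hold no probe sequences, so the sequences shown are those of promoters. The RefSeq table holds 16 start sites for the 8 genes (6 of them for DNMT3A and 3 for UHRF1), each with the 250 bases before and the first 50 after the start. They were searched on both strands for 4 E2F-like motifs, of the kind at which E2F and DREAM complexes bind cell cycle genes. These were TTCCCGC (present in 6.55% of all promoters of the table), TTGGCGC (3.04%), TTCGCGC (2.24%) and TTGCCGC (2.39%). The search also held 2 CHR-like motifs, of the kind found in genes of late cell cycle phases, TTTGAA (15.2%) and TTCGAA (1.45%). An E2F-like match was present at 6 of the 16 start sites and in 5 of the 8 genes, namely HELLS, UHRF1, DNMT1, EZH2 and SUZ12, against 13.0% of the 35116 promoters of the table. DNMT3A, DNMT3B and EED held none. The 1 window of DNMT3B (chr20:32779602-32779901) lies inside the gene as placed above, so the annotated start of that gene was not searched. The same holds for UHRF1, whose 3 windows (chr19:4909251-4909550, chr19:4909894-4910193 and chr19:4910117-4910416) all lie inside the gene as placed. The UHRF1 matches are thus at start sites within it. A CHR-like match was present at 2 start sites, 1 of SUZ12 and 1 of DNMT3A, against 16.4% of all promoters. Genes with several start sites have more windows to match in, the letters were not tested for binding, and the absence of a match concerns only these windows. The 200 bases before the start are printed 5′ to 3′ on the strand of the gene for HELLS, with matches at positions -76 and -7 (the first base of the match, where -1 is the last base before the start), for a start site of UHRF1 with matches at -104 and -14, and for SUZ12, whose TTCCCGC at -188 and TTTGAA (on the other strand) at -173 are neighbours. They are shown because these genes changed in expression below, and capitals mark the matches.
HELLS, chr10:94545588-94545787, plus strand: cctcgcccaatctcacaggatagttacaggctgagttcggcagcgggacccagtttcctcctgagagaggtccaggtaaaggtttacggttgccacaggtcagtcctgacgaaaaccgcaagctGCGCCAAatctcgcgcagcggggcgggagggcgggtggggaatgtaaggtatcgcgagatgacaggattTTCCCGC
UHRF1, chr19:4909301-4909500, plus strand: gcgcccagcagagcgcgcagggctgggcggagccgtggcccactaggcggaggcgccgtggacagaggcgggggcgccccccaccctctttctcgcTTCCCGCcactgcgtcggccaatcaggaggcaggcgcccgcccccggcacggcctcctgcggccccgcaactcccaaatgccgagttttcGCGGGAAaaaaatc
SUZ12, chr17:31936807-31937006, plus strand: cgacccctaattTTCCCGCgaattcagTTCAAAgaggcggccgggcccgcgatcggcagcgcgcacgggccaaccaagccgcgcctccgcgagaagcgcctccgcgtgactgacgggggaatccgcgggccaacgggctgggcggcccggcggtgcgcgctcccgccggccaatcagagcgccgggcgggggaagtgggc
The match of DNMT1 (TTCGCGC on the other strand) began at position -2 and that of EZH2 (TTGGCGC) lay at base 3 of the transcript, so both reach beyond the stretch before the start.

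Each time point filled 2 slides, and all 3 siRNAs were on each slide. The 24 h and 48 h samples were measured on different versions of the array, so their levels are not compared. One si-A2 array at 48 h (replicate 2) was dim, with a median processed intensity of 13.9 where the other arrays of that time point had 20.4 to 32.2, and it was left out, which leaves 3 si-A2 arrays at 48 h. The third si-SCRL array at 24 h stood apart from its group. Over the tested probes with a value on every array, its mean correlation with the other si-SCRL arrays was 0.954. For the other arrays at 24 h the mean correlation with their own group was 0.967 to 0.981. The luminal prostate markers KLK3, KLK2, HOXB13, FOLH1 and TMPRSS2 were well above background on every array used, while markers of other cell types were mixed. The basal marker KRT5 and the stromal marker COL1A2 were well above background on no array, and the leukocyte marker PTPRC was on every one (6.55 to 7.58 at 24 h). The basal marker KRT14 was on 10 of 12 arrays at 24 h and 10 of 11 at 48 h, the endothelial marker PECAM1 on all 12 and on 8 of 11, the stromal marker DCN on 2 of 12 and on all 11, and COL1A1 on 3 of 12 and on none. Of these 7 markers, 5 could be tested at each time point and none was called in any comparison. Of the targets, TAPIR-2 has a probe on both versions. Its 24 h log2 intensity, after normalization, averaged 5.04 ± 0.20 (SD, n = 4) with si-SCRL, 4.64 ± 0.32 (n = 4) with si-A1 and 4.06 ± 0.74 (n = 4) with si-A2. All 4 si-A2 arrays lay below all si-SCRL arrays (exact two-sided permutation p = 0.0286, the smallest that 4 against 4 arrays allow), but the fit across all probes did not call it (log2 fold change -0.98, SE 0.33, adjusted p = 0.23). At 48 h the same probe differed from si-SCRL by 0.23 (SE 0.26, adjusted p = 0.7) after si-A2. A second TAPIR-2 probe, tested at 48 h only, was well above background on no array. It differed by -0.59 (SE 0.51, adjusted p = 0.605) after si-A2 and by -0.78 (SE 0.47, adjusted p = 0.327) after si-A1. A lower TAPIR-2 level was thus not detectable on the arrays at 48 h, and TAPIR-1 was not analysed here.

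At 24 h, HELLS and UHRF1 fell after both siRNAs, and EZH2 was called lower after si-A2. Calls needed an adjusted p below 0.01 (limma over all probes, with Benjamini-Hochberg adjustment) together with a log2 fold change of 0.5 or more in either direction, and the brightest probe stands for each gene. With si-A1, 2 of the 6 genes that could be tested (DNMT3B was too dim) were called lower, where 1.68% of all 19497 named genes were, and with si-A2 it was 3 of 6, where 1.46% were. Of these 3, EZH2 entered the test only through the si-SCRL and si-A1 arrays, in which it is higher. That favours a lower outcome with si-A2, so its call adds no support to the count. None was called higher with either siRNA, against 0.123% and 0.138% of all genes. The median log2 fold change of the 6 genes was -0.91 with si-A1 and -1.27 with si-A2, and that of all genes was 0.03 with each. Both medians of the 6 include EZH2, whose values lie near background, so that their size is not a fold change. Both comparisons use the same si-SCRL arrays.

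HELLS, the remodeller, had log2 intensities of 9.25, 9.53, 9.73 and 9.31 on the si-SCRL arrays of replicates 1 to 4. It had 7.82, 7.57, 7.75 and 7.55 with si-A1 and 7.69, 7.50, 7.44 and 7.68 with si-A2. The 4 arrays of each knockdown lay far below every control array. HELLS fell by 1.78 on the log2 scale with si-A1 (3.43-fold, SE 0.15, adjusted p = 0.000116) and by 1.87 with si-A2 (3.67-fold, SE 0.15, adjusted p = 7.77e-05). A second, dimmer HELLS probe gave the same calls, with log2 fold changes of -1.99 (adjusted p = 0.000883) and -2.44 (adjusted p = 0.00023). On the first slide alone HELLS differed by -1.69 with si-A1 and -1.80 with si-A2, and on the second by -1.86 and -1.95.

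UHRF1, which reads hemimethylated DNA, had log2 intensities of 9.40, 9.58, 9.36 and 9.62 with si-SCRL, 8.66, 8.60, 8.82 and 8.83 with si-A1, and 8.37, 8.38, 8.64 and 8.38 with si-A2. Here too neither knockdown overlapped the controls. UHRF1 fell by 1.05 on the log2 scale with si-A2 (2.07-fold, SE 0.12, adjusted p = 0.00101) and by 0.76 with si-A1 (1.69-fold, SE 0.12, adjusted p = 0.00756). The si-A1 call was narrow: it was lost when any of 11 of the 12 arrays was left out (adjusted p from 0.0129 to 0.0396) and kept when the si-SCRL array that stood apart was left out (-0.83, adjusted p = 0.00403). The si-A1 call was also lost with the replicate number as a block in place of the slide. The differences themselves were -0.86 and -0.66 on the 2 slides. A second UHRF1 probe was well above background on no array at 24 h and was not tested.

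DNMT1, the maintenance enzyme, had log2 intensities of 5.71, 5.57, 6.31 and 5.86 with si-SCRL, 4.91, 4.25, 4.70 and 3.87 with si-A1, and 3.35, 4.94, 4.53 and 4.65 with si-A2. Its groups did not overlap either, with log2 fold changes of -1.43 (SE 0.34) and -1.49 (SE 0.34), but the spread was wider than for UHRF1 and neither was called (adjusted p = 0.0649 and 0.0614). The probe was dim after knockdown, well above background on 2 of 4 si-A1 and 3 of 4 si-A2 arrays, and the size of its change depended on the background correction. With normexp correction the log2 fold changes were -0.53 (adjusted p = 0.0177) and -0.47 (adjusted p = 0.0393). Groups without overlap, lower after knockdown, were seen in 7.7% of all genes with si-A1 and in 6.05% with si-A2.

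EZH2, the catalytic subunit of PRC2, was measured by a single dim probe that was well above background on 1 of the 12 arrays at 24 h. It passed the negative-control threshold needed for testing on 4 si-SCRL and 3 si-A1 arrays and on 0 si-A2 arrays. It was thus tested only through the groups in which it is higher. Its log2 intensities were 2.84, 3.65, 3.76 and 4.02 with si-SCRL, 2.95, 1.58, 2.83 and 2.69 with si-A1, and 1.58, 1.58, 1.70 and 1.58 with si-A2. The si-A2 values all lay at the bottom of the scale and the control values above them. The fit called EZH2 lower with si-A2 (adjusted p = 0.00411) and not with si-A1 (adjusted p = 0.104). No fold change is given, because signals this close to background set no bound above 1. The si-A2 call was lost without any 1 of 7 arrays, which were all 4 si-A2 arrays and si-SCRL replicates 2, 3 and 4 (adjusted p from 0.0129 to 0.0201), and also without background correction (-0.22, adjusted p = 0.0555) or with normexp correction (-0.23, adjusted p = 0.0548).

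SUZ12 and DNMT3A were not called at 24 h. SUZ12, averaged over 10 spots, had 6.86, 6.82, 7.82 and 7.27 with si-SCRL, 6.93, 6.75, 6.99 and 6.67 with si-A1, and 6.18, 6.98, 6.75 and 6.85 with si-A2. The groups overlapped, with differences of -0.36 (SE 0.22, adjusted p = 0.517) and -0.50 (SE 0.22, adjusted p = 0.4). Without the si-SCRL array that stood apart, which held the highest SUZ12 value, these were -0.18 and -0.32. The brightest of 3 DNMT3A probes differed by -0.24 (95% confidence interval -0.65 to 0.18) with si-A1 and by -0.27 (-0.68 to 0.15) with si-A2, and its other probes by -0.19 to 0.14. DNMT3B was well above background on no array at either time point, with log2 intensities of 1.60 to 1.99 at 24 h and 1.13 to 2.55 at 48 h, so it was not tested.

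**Figure D1:**
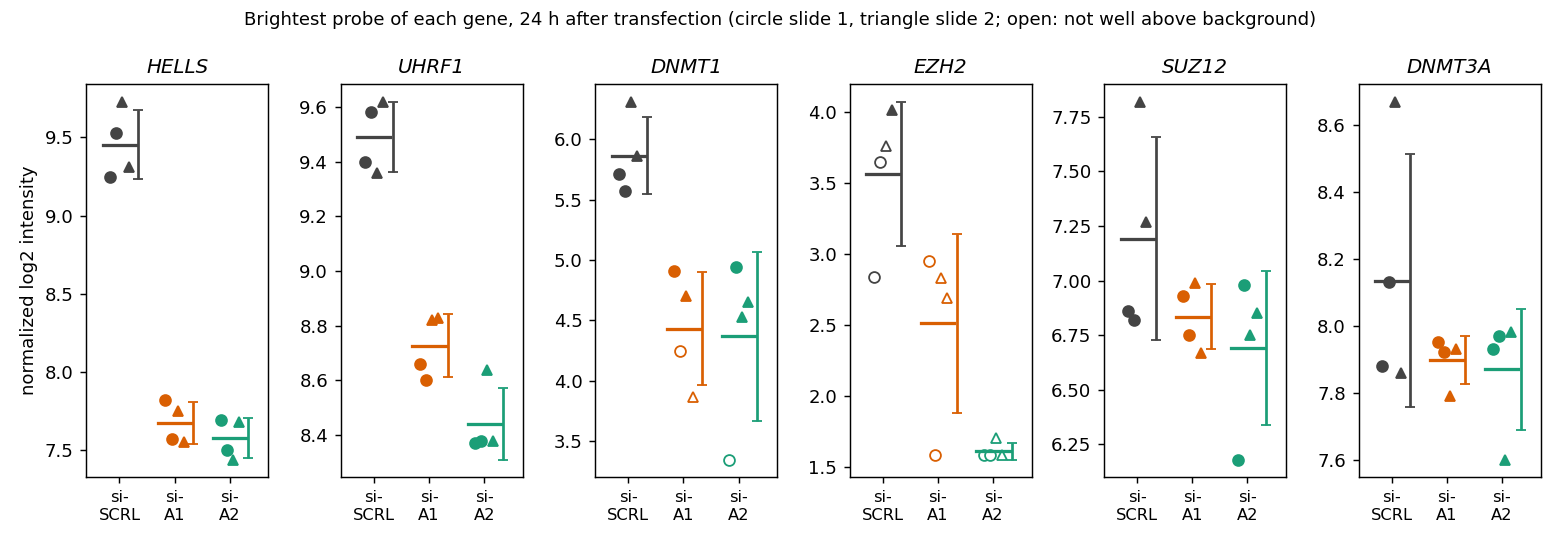
Normalized log2 intensity (vertical axis, own scale per gene) of the brightest probe of each of the 6 testable genes on the 12 arrays at 24 h, by siRNA, with the mean (line) and SD (bar, n = 4). Circles and triangles are the 2 slides and open symbols mark arrays on which the probe was not well above background. HELLS and UHRF1 with si-A1 and si-A2 lie below all si-SCRL arrays, while SUZ12 and DNMT3A overlap.

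At 48 h after si-A1, 5 of the 6 testable genes were called lower and none higher: DNMT1, EZH2, HELLS, UHRF1 and SUZ12. To be tested, a probe had to lie above the negative-control threshold on 3 or more arrays. EZH2 did so on 4 si-SCRL arrays, 1 si-A1 array and 0 si-A2 arrays. It thus entered the test through the group in which it is high, which favours a lower outcome, so its call adds no support to the count. The background was larger too, with 6.19% of all genes called lower and 2.19% called higher in that comparison. The median log2 fold change of the 6 genes was -1.04 and that of all genes 0.02. EZH2, with signals near background, is included in that median of the 6. In 4 of the 6, HELLS, UHRF1, DNMT1 and SUZ12, all si-A1 arrays lay below all si-SCRL arrays, as they did in 13% of all genes.

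DNMT1 was among the genes called. Its log2 intensities were 6.34, 5.78, 5.67 and 6.15 with si-SCRL and 4.28, 4.30, 3.92 and 3.82 with si-A1, all well above background. DNMT1 fell by 1.91 on the log2 scale (3.75-fold, SE 0.16, adjusted p = 0.000123), where the SDs within the groups were 0.31 and 0.25 (n = 4 each). On the separate slides the differences were -1.77 and -2.04. The call held without background correction and with normexp correction, but the size did not, with log2 fold changes of -0.86 (adjusted p = 1.76e-05) and -0.64 (adjusted p = 6.7e-05).

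HELLS had 9.69, 9.84, 9.60 and 9.59 with si-SCRL and 9.09, 8.34, 8.12 and 8.17 with si-A1 at 48 h, with replicate 1 the least reduced. It fell by 1.25 on the log2 scale (2.37-fold, SE 0.17, adjusted p = 0.00188), and its second probe by 2.16 (4.46-fold, SE 0.19, adjusted p = 0.000189). The 2 probes thus differed in the size of the change at 48 h, in which the second showed no lesser reduction of replicate 1 (4.62, against 5.05, 4.85 and 5.24). UHRF1 had 9.66, 9.90, 9.59 and 9.68 with si-SCRL and 9.09, 9.14, 8.56 and 8.68 with si-A1. It fell by 0.84 on the log2 scale (1.79-fold, SE 0.11, adjusted p = 0.00113). Its second probe, well above background on 3 si-SCRL arrays and 1 si-A1 array, was not called (adjusted p = 0.0876), with si-A1 replicate 4 at 3.97, above the controls at 3.64 to 3.84, and the other si-A1 arrays at 1.18 to 1.87. With the median over probes in place of the brightest one, UHRF1 was not called with si-A1 at 48 h (-1.26, adjusted p = 0.0256).

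Of the PRC2 subunits at 48 h, SUZ12 had 7.0, 6.91, 6.84 and 6.96 with si-SCRL and 6.07, 6.32, 6.18 and 6.19 with si-A1. These are narrow groups that lie far apart relative to their spread. SUZ12 fell by 0.74 on the log2 scale (1.66-fold, SE 0.09, adjusted p = 0.00121). With normexp correction its difference, -0.45, was below the size needed for a call. EZH2 had 3.94, 4.00, 2.85 and 4.02 with si-SCRL, 3 of them well above background, and 2.37, 2.92, 1.78 and 1.60 with si-A1, none of them well above background. The groups overlapped through si-SCRL replicate 3. EZH2 was called lower (adjusted p = 0.00614), and since the si-A1 level is only a bound, it was at least 1.41-fold lower with the main processing. At 48 h same-numbered replicates deviated together, and with the replicate number as a block in place of the slide the EZH2 call was lost (adjusted p = 0.0189) while the other 4 calls held. The EZH2 call was also lost without any 1 of 7 arrays, which were si-SCRL replicates 1 and 2, all si-A1 replicates and si-A2 replicate 3 (adjusted p from 0.0105 to 0.022). It was lost too with scaling on the 75th percentile and with normexp or no background correction. The same held without the slide term, with the slide as a random block and with only the compared groups in the fit. Over the alternatives the EZH2 difference ran from -1.75 to -0.19.

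DNMT3A, in contrast, was not called. Its brightest probe had 7.36, 7.46, 7.65 and 7.23 with si-SCRL and 7.58, 7.51, 7.46 and 7.40 with si-A1 at 48 h, overlapping throughout. The difference was 0.06 (95% confidence interval -0.17 to 0.30, adjusted p = 0.754), an interval that holds no change of the size called for the 5 other genes. The other probes differed by 0.12 and 0.20, neither of them called.

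**Figure D2:**
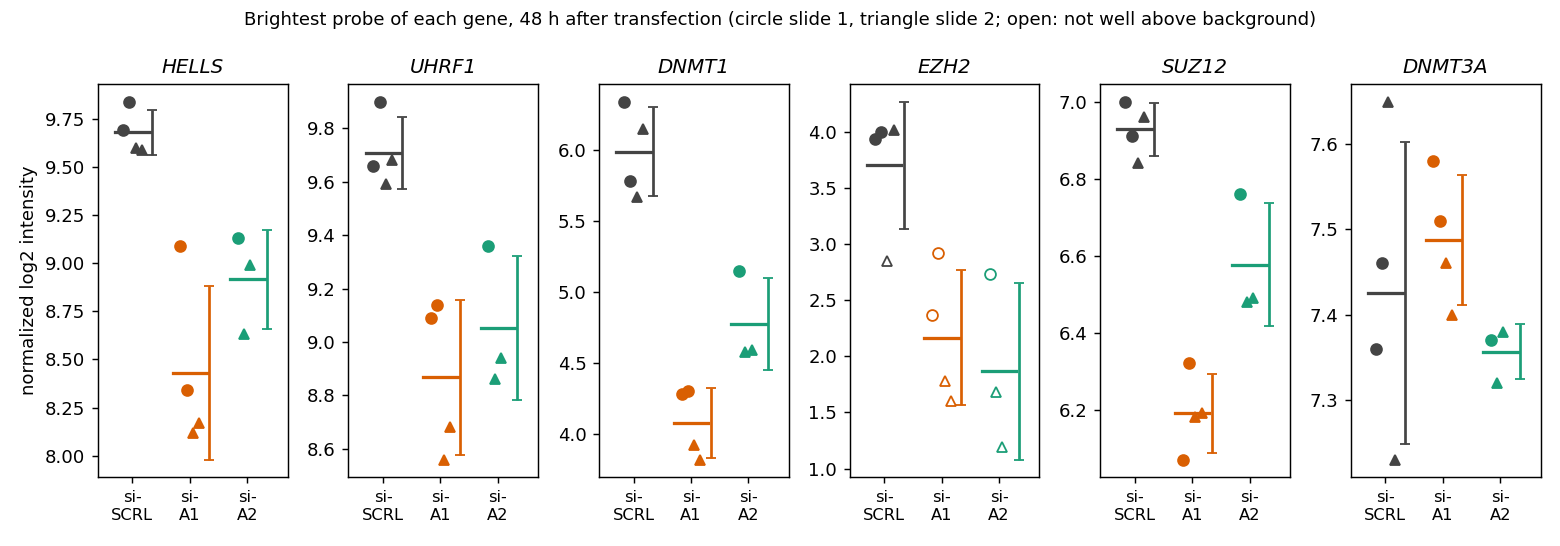
Normalized log2 intensity (vertical axis, own scale per gene) of the same 6 genes on the 11 arrays used at 48 h, by siRNA, with the mean (line) and SD (bar, n = 4 for si-SCRL and si-A1, n = 3 for si-A2). Circles and triangles are the 2 slides and open symbols mark arrays not well above background. DNMT1 lies highest with si-SCRL (5.67 to 6.34), lowest with si-A1 (3.82 to 4.30) and between them with si-A2 (4.58 to 5.15).

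At 48 h after si-A2, none of the 6 genes was called, where 0.655% of all genes were called lower and 0.0877% higher. Before adjustment 5 of the 6, all but DNMT3A, passed 0.05 in the same limma fit, and so did 20.7% of all genes. The log2 fold changes of all 6 were below 0, as were those of 52.1% of all genes, with a median of -0.65 against -0.01 over all genes. EZH2 is in these counts and in the median of the 6. It passed the threshold for testing on no si-A2 array, which favours a lower outcome, so it adds no support to them. DNMT1 had 5.15, 4.58 and 4.59 on the 3 si-A2 arrays, below every si-SCRL array, with a log2 fold change of -1.15 (SE 0.17, adjusted p = 0.013), and of -0.47 with normexp correction. UHRF1 had 9.36, 8.86 and 8.94 (-0.60, SE 0.11, adjusted p = 0.0304) and HELLS had 9.13, 8.63 and 8.99 (-0.71, SE 0.19, adjusted p = 0.0901), both also below every control array. The second HELLS probe had 6.12, 5.77 and 6.46 (-0.99, SE 0.21, adjusted p = 0.0454). EZH2 had 2.73, 1.68 and 1.19, none of them well above background, and was at least 1.3-fold lower with the main processing (adjusted p = 0.0215). Over the alternatives its difference ran from -2.01 to -0.20. SUZ12 had 6.76, 6.48 and 6.49 (-0.34, SE 0.10, adjusted p = 0.131). All genes but DNMT3A were without overlap between si-A2 and si-SCRL, and this held, in the lower direction, for 9.67% of all genes. Here too EZH2 adds no support. DNMT3A had 7.37, 7.32 and 7.38 (-0.06, 95% confidence interval -0.31 to 0.19).

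The count of 0 after si-A2 at 48 h depended on the background correction. Without it DNMT1, HELLS and UHRF1 were called lower, and with normexp correction HELLS and UHRF1 were. The 5 calls with si-A1 in turn fell to 0 when the dim si-A2 array was kept in the fit, with which 27 of all probes were called in that comparison. The log2 fold changes of DNMT1 (-1.84), HELLS (-1.28), UHRF1 (-0.86) and SUZ12 (-0.72) were then close to those without it, and the standard errors larger (0.73 for DNMT1 and 0.95 for SUZ12).

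**Figure D3:**
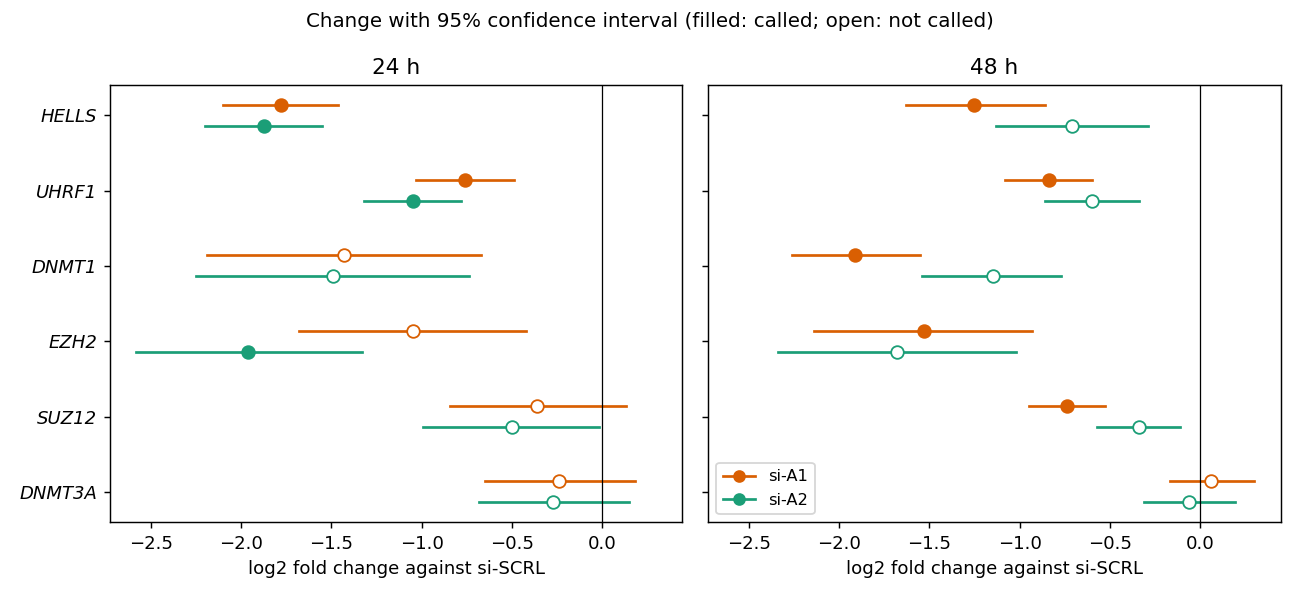
Log2 fold change against si-SCRL (horizontal axis) of the brightest probe of each of the 6 genes at 24 h and 48 h, with 95% confidence intervals from the limma fit; filled points were called and open points were not. At 48 h the si-A1 change of DNMT1 is -1.91 and that of DNMT3A 0.06, and the EZH2 values include signals near background, so their size is not a fold change.

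The knockdowns were compared directly with each other in the same fits. At 24 h none of the 6 genes was called between si-A2 and si-A1, with 0.19% of all genes called lower and 0.4% called higher. Before adjustment 2 genes, UHRF1 and EZH2, passed 0.05 in the limma fit, where 13.3% of all genes did. EZH2 passed the threshold for testing on si-SCRL and si-A1 arrays and on no si-A2 array, so it adds no support to that count. UHRF1 differed by -0.29 (95% confidence interval -0.56 to -0.02, adjusted p = 0.398). HELLS differed by -0.09 (-0.42 to 0.23) and DNMT1 by -0.06 (-0.82 to 0.69). At 48 h none was called either, with 0.588% of all genes called lower and 1.6% called higher. Before adjustment 3 (DNMT1, HELLS and SUZ12) passed 0.05, where 22.7% of all genes did. All si-A2 arrays lay above all si-A1 arrays for DNMT1 and SUZ12, as in 11.1% of all genes. DNMT1 differed by 0.75 (95% confidence interval 0.37 to 1.14, adjusted p = 0.0392), and SUZ12 by 0.40 (0.17 to 0.63, adjusted p = 0.0584). HELLS differed by 0.54 (0.12 to 0.96, adjusted p = 0.146), and its second probe, which did not overlap between the knockdowns, by 1.17 (0.69 to 1.65, adjusted p = 0.0168). UHRF1 differed by 0.24 (-0.01 to 0.50) and DNMT3A by -0.12 (-0.38 to 0.13). With normexp or no background correction HELLS was called higher with si-A2 than with si-A1 at 48 h.

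An interaction term over the probes shared by both array versions tested whether the effect of an siRNA differed between the time points. None of the 6 genes passed for either siRNA, and before adjustment HELLS and UHRF1 passed 0.05 in the limma fit for si-A2 and HELLS for si-A1. The share of all genes that passed 0.05 there was not counted. Of all genes, 0.174% were called lower and 0.0506% higher for si-A1, and 0.00562% lower and 0.0449% higher for si-A2. For si-A2 the HELLS effect was 1.21 closer to 0 at 48 h (SE 0.23, adjusted p = 0.0558), and by its second probe 1.52 (SE 0.33, adjusted p = 0.113). The UHRF1 effect was 0.49 closer to 0 (SE 0.15, adjusted p = 0.388). For si-A1 the HELLS effect at 48 h minus that at 24 h was 0.59 (SE 0.22, adjusted p = 0.243), that of UHRF1 -0.03 (SE 0.15), of DNMT1 -0.30 (SE 0.45) and of SUZ12 -0.37 (SE 0.24). DNMT1 was thus called only at 48 h and EZH2 with si-A2 only at 24 h without a difference between the time points that passed the test.

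Of 20 genes that work with, read or remove DNA methylation, PCLAF and PCNA fell with both siRNAs at 24 h, which is 2 of 19 tested in each comparison, where 1.68% and 1.46% of all genes were called lower. PCNA is the sliding clamp of the replication fork, to which DNMT1 binds, and PCLAF is a PCNA-associated factor that takes part in bringing DNMT1 to the fork. PCLAF changed by -1.54 (adjusted p = 0.000233) with si-A1 and -2.0 (adjusted p = 4.19e-05) with si-A2, and PCNA by -1.40 (adjusted p = 0.000604) and -1.20 (adjusted p = 0.00166). At 48 h after si-A1, 4 of 18 fell, where 6.19% of all genes did. PCLAF changed by -3.36 on the log2 scale (SE 0.30, adjusted p = 0.000172), PCNA by -2.02 (SE 0.15, adjusted p = 8.21e-05), CDCA7L by -1.07 (adjusted p = 0.00148) and LIG1, the replicative DNA ligase whose methylated tail UHRF1 recognises, by -1.0 (adjusted p = 0.00413). These 4 calls held with normexp correction, with which PCLAF changed by -1.76 and LIG1 by -0.50. After si-A2 at 48 h none of the 18 was called (7 passed 0.05 before adjustment, where 20.7% of all genes did). PCNA was 1.09 higher with si-A2 than with si-A1 (SE 0.16, adjusted p = 0.00806). CDCA7, the partner of HELLS, lay at -0.50 to -0.52 with si-A1 and -0.34 to -0.63 with si-A2 and was not called in any comparison. Its si-A1 difference at 48 h passed the p threshold (adjusted p = 0.00811) and before rounding fell just short of 0.5 in size. None of the TET enzymes or methyl-CpG binding proteins on the list was called. The median of the list was -0.26 and -0.18 at 24 h and -0.40 and -0.23 at 48 h, for si-A1 and si-A2.

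Of 13 PRC2 cofactors and H3K27 demethylases, none of the 12 tested at 24 h was called. Before adjustment 2 with si-A1 and 4 with si-A2 passed 0.05, where 15.8% and 13.8% of all genes did. At 48 h 1 of 13 was called, RBBP7, a histone-binding subunit, which fell by 0.75 on the log2 scale after si-A1 (SE 0.10, adjusted p = 0.00149). That share is near the 6.19% of all genes called lower in the comparison. Its paralogue RBBP4 lay at -0.80 (adjusted p = 0.0408) with si-A2 at 24 h and -0.56 (adjusted p = 0.0207) at 48 h. EZH1, the other catalytic subunit, lay between -0.05 and 0.30 over the 4 comparisons with si-SCRL, and the demethylase genes KDM6A and KDM6B between -0.44 and 0.38. None of the PRC1 subunits, which bind the mark that PRC2 writes, was called in any comparison (19 tested at 24 h and 18 at 48 h), with list medians between -0.09 and 0.06 against si-SCRL. Before adjustment 5 of them passed 0.05 at 24 h with si-A1 and 5 with si-A2, and at 48 h 4 and 2. Of all genes, 15.8% and 13.8% passed 0.05 at 24 h and 33.9% and 20.7% at 48 h. The shares of the list at 48 h were no larger than these.

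**Figure D4:**
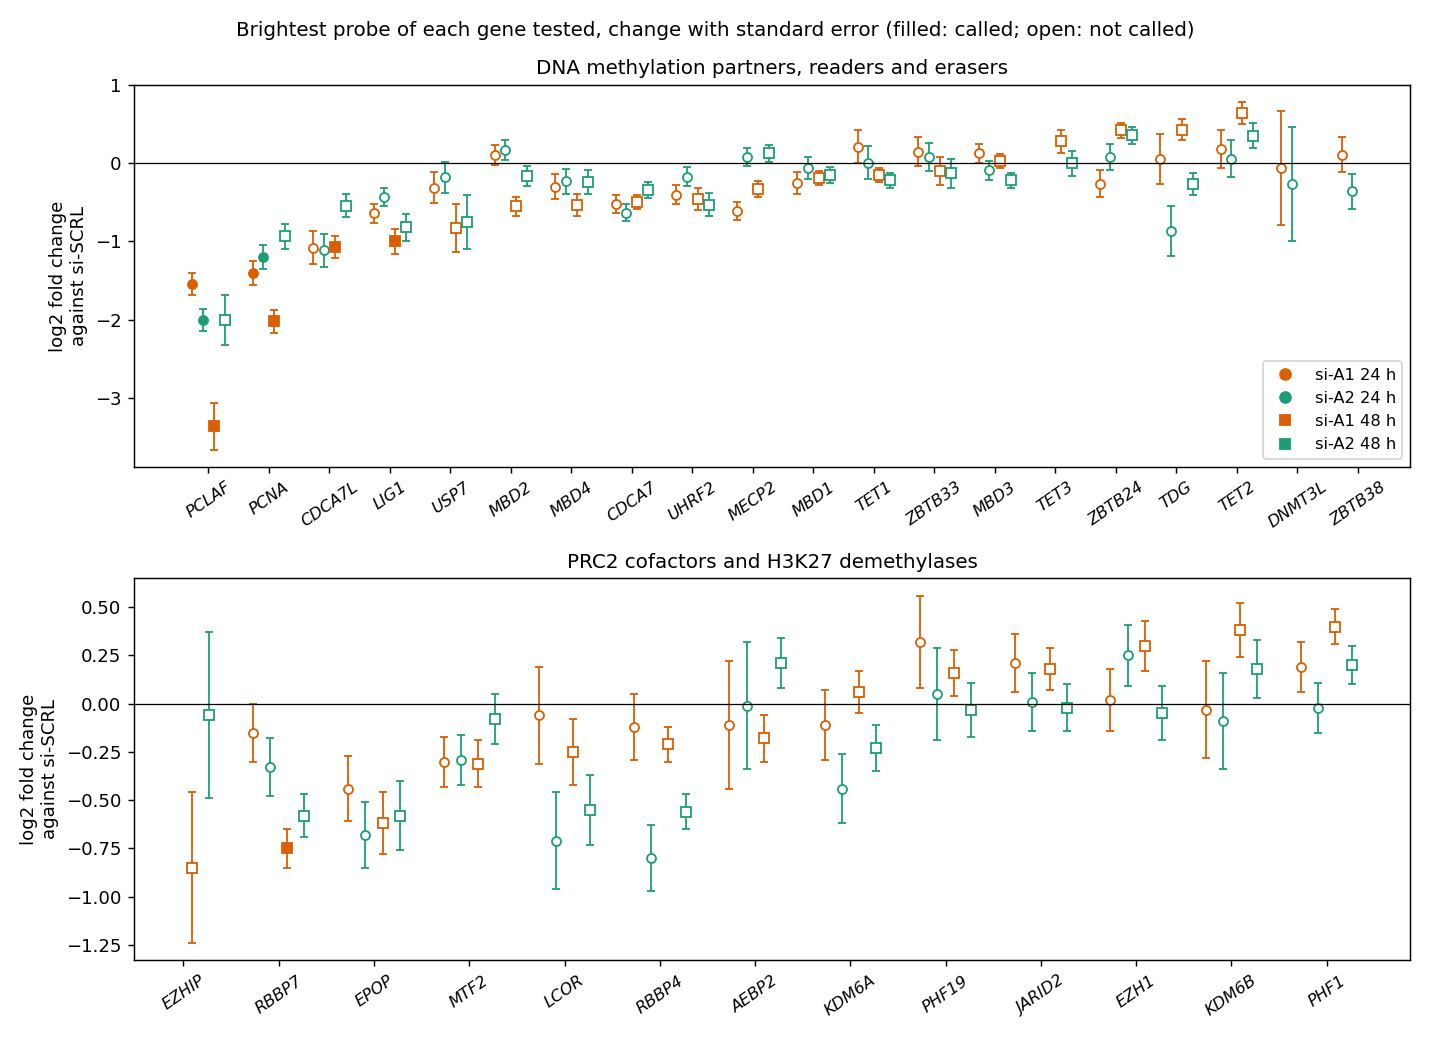
Log2 fold change against si-SCRL (vertical axis) with its standard error for each tested gene of 2 lists, DNA methylation partners, readers and erasers (top) and PRC2 cofactors and H3K27 demethylases (bottom), by siRNA (colour) and time (circle 24 h, square 48 h). Filled symbols were called: PCLAF, PCNA, CDCA7L and LIG1 in the upper list and RBBP7 in the lower. The genes are ordered by the si-A1 change at 48 h, with those not tested there last.

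Genes that these marks are known to silence were also examined. Of 18 germline genes silenced by DNA methylation, none of the 12 tested at 24 h was called. Before adjustment 2 and 0 passed 0.05 with si-A1 and si-A2, where 15.8% and 13.8% of all genes did. At 48 h 2 of 11 were called higher after si-A1: BRDT, a testis bromodomain gene, at least 1.22-fold (well above background on 3 of 4 si-A1 arrays and no si-SCRL array, adjusted p = 0.00116), and PAGE2, a cancer-testis gene, by 0.87 on the log2 scale (SE 0.17, adjusted p = 0.00912), although its groups overlapped. The BRDT and PAGE2 calls were lost without background correction (0.35 and 0.34) and with normexp correction (0.22 and 0.23), and that of PAGE2 with the replicate block (adjusted p = 0.0178). Among all genes 2.19% were called higher in that comparison. Of si-A1 and si-SCRL, BRDT was well above background only with si-A1, where it is higher. Entering the test mainly through that group would favour a higher outcome, so its call adds no support to the count. The list median was 0.25 with si-A1 and -0.05 with si-A2 at 48 h, and 0.06 and 0.08 at 24 h. Of 10 genes known as methylated or EZH2-repressed in prostate cancer, 9 were tested at each time point and none was called higher. MSMB, a secreted prostate protein gene that EZH2 represses, was called lower after si-A2 at 24 h, at least 1.81-fold (adjusted p = 0.00612), a call lost without background correction (-0.21, adjusted p = 0.0989), and GSTP1, the classic methylated gene of prostate cancer, changed by -0.09 (adjusted p = 0.686) with si-A1 at 48 h. Of the luminal markers, KLK2 fell after si-A1 at 48 h (-1.07, adjusted p = 0.000972) and was 0.91 higher with si-A2 than with si-A1 (adjusted p = 0.00909), the latter not with the replicate block (adjusted p = 0.0285).

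The genes varied together from array to array, and the values below share the siRNA groups and the arrays, so they describe these arrays and carry no test. Over the 12 arrays at 24 h the Pearson r between the brightest probes was 0.919 for HELLS and UHRF1, 0.845 for HELLS and DNMT1 and 0.9 for EZH2 and UHRF1. Over the 11 arrays at 48 h it was 0.927, 0.914 and 0.903 for these pairs and 0.961 for DNMT1 and SUZ12. DNMT3A had r between -0.327 and -0.022 with the other 5 genes at 48 h, and between 0.344 and 0.634 at 24 h. The 5 genes most like UHRF1 at 24 h among 19476 were H2AC16, a histone gene (r = 0.978, and 0.867 at 48 h), CDC45 (0.975 and 0.941) and MCM3 (0.964 and 0.879) of the replicative helicase, the helicase gene DDX11 (0.971 and 0.844) and DONSON (0.963 and 0.87). The 5 most like EZH2 were MTMR12 (0.925 and 0.722), KLF11 (0.923 and 0.025), FBXO5 (0.92 and 0.732), SRXN1 (0.914 and 0.754) and DENND11 (0.908 and 0.031), of which KLF11 and DENND11 were near 0 at 48 h. At 24 h EZH2 was well above background on 1 si-SCRL array and no other, KLF11 on 2 arrays and FBXO5 on 7. Each r with EZH2 at 24 h, also that with UHRF1, thus rests largely on signals near background.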

How the data were processed

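The authors deposited the Agilent Feature Extraction output of each array (version 11.5.1.1 per the file headers), whose processed signal is a linear intensity, already corrected for background and spatial trend by the software. The authors also deposited log2 values per time point, which are these intensities quantile-normalized. The submitters' processing notes name R 3.4.3 and limma 3.34.8 and the build hg38. Here the log2 processed intensity was quantile-normalized per time point, non-uniform and population outlier spots were set aside, and spots of a probe were averaged. Tested were probes that lay, on 3 or more arrays, over 3 SDs above the mean of the array's 308 negative control spots. Of the probes, 29033 at 24 h and 31104 at 48 h were named through RefSeq (GRCh38.p14).

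limma 3.58.1 in R 4.3.3 (statmod 1.5.0, data.table package, version 1.17.8) fitted all 3 siRNAs of a time point with the slide as a term. Adjusted p-values are Benjamini-Hochberg values over all probes tested. "Well above background" is Feature Extraction's own call. A bound ("at least") sets the higher group against the lowest signal well above background on each array of the lower. No spot was saturated, and the number of arrays limits the precision. At 48 h every same-numbered pair of samples deviated together (r from 0.179 to 0.354 over probes), so a fit with the numbers as pairs was made as an alternative. Same-numbered samples also share a slide, which was not removed from these deviations, so pairing and slide are not told apart. Replicates 1 and 4 of si-A1 correlated best with an si-SCRL array of another number. The printed values still come from the fit with the slide. Calls of the named genes that changed with the replicate block are stated beside the result or in the last section. The numbers are those of the labels, which do not say what they share.

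Named were every probe of the 8 genes, the TAPIR-2 probes, list members that were called and, chosen after their values were seen, single list members that were not. For UHRF1 and EZH2 the 5 genes of highest r were named. Some luminal markers are not reported here. Genes, lists and motifs were chosen with earlier results of these data known. In simulated data of the same size, 23% of probes changed by 1 and 64% of those changed by 2 on the log2 scale were recovered in the comparison of si-A1 with si-SCRL at 24 h, and 43% and 74% at 48 h. There 100 probes were changed by each size, and the noise was independent, without slide or replicate effects. In the data 2761 probes were called with si-A1 at 48 h, so these percentages are not the recovery in the data. The alternatives were other scaling, background correction, filters, slide handling, probe rules and thresholds, the authors' log2 values, a replicate block and each array left out.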

Additional observations from a re-analysis of the deposited data

Results flagged for a closer look

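A sample was looked at again when it lay apart from the other 3 of its group, by a gap to the nearest one, relative to the range of the group, above Dixon's 95% critical value. This held for 9 of 55 groups of 4 arrays (probe by siRNA and time), where chance flags about 1 in 20. Values are normalized log2 intensities. In si-SCRL at 24 h, replicate 3 lay apart on 2 probes, high for the second HELLS probe (7.59, the others 6.67 to 6.81) and low for a DNMT3A probe (7.39, the others 7.89 to 7.95), and this is the array with the lowest correlation with its own group. With si-A1 at 24 h, replicate 3 was high for the same DNMT3A probe (8.0, the others all 7.90). With si-A2 at 24 h, replicate 3 was high for UHRF1 (8.64, the others 8.37 to 8.38) and for EZH2 (1.70, the others 1.58, near the lowest values of the array) and low for the brightest DNMT3A probe (7.60, the others 7.93 to 7.98), and replicate 1 was low for another DNMT3A probe (7.66, the others 7.86 to 7.88). At 48 h, si-SCRL replicate 3 was low for EZH2 (2.85, the others 3.94 to 4.02) and si-A1 replicate 1 was low for DNMT3B (1.13, the others 1.97 to 2.14, none of them well above background). Causes were not tested.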

How the results depend on the processing

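No call against si-SCRL changed direction under any alternative. With si-A1 at 24 h (2 genes called lower) 1 gene, HELLS, remained called with scaling on the 75th percentile, with the replicate block, with only the compared groups in the fit, with the interquartile filter and at a log2 fold change of 1 or more, and 1 to 2 with single arrays left out. With si-A2 at 24 h (3 called) it was 2 to 3 with single arrays left out, and 2 under 6 further alternatives. EZH2 was lost with normexp, without background correction and with the replicate block and was not tested with the filter on signals well above background, and UHRF1 was lost with only the compared groups in the fit (adjusted p = 0.0193) and with the interquartile filter (adjusted p = 0.0209). With si-A1 at 48 h (5 called) it was 3 with normexp correction, without the slide term and at a log2 fold change of 1 or more, 0 with the dim si-A2 array kept in, and 4 to 5 with single arrays left out. With si-A2 at 48 h (0 called) it was 2 with normexp, 3 without background correction and 1 with the filter on signals well above background. Higher with si-A2 than with si-A1 at 48 h (0 called) was 1 gene with normexp and 1 without background correction, and for the si-A2 effect at 48 h minus 24 h 1 gene was called without background correction. Within a single slide 0 genes were called in each comparison with si-SCRL, and no probe of the array passed either, so these fits say nothing about the calls. The causes of these moves were not tested.

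Differences that were not called and changed sign were, for si-A2 against si-A1 at 24 h, DNMT1 with normexp (0.06), without background correction (0.06), within slide 2 (0.31) and without single arrays (-0.32 to 0.28), and DNMT3A within slide 1 (0.02) and without single arrays (-0.07 to 0.07). At 48 h they were EZH2 without background correction (0.02), within slide 1 (0.09) and without single arrays (-0.37 to 0.04), and SUZ12 (-0.91) and DNMT1 (-0.24) with the dim array kept in. For DNMT3A against si-SCRL they were the median over probes (0.12 with si-A1 at 24 h, 0.03 with si-A2 at 48 h), within slide 2 (-0.01 with si-A1 at 48 h) and single arrays left out (-0.14 to 0.04 with si-A2 at 48 h). For effects at 48 h minus 24 h with si-A2 they were DNMT3A with the interquartile filter (-0.01) and, with the dim array kept in, SUZ12 (-1.04) and DNMT1 (-0.47), and with si-A1, without single arrays, EZH2 (-0.35 to 0.13) and UHRF1 (-0.12 to 0.04).

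At 24 h replicate numbers did not pair the arrays (correlations of same-numbered samples from -0.147 to 0.159, and 3 of 12 best with their own number). Under the replicate block, all probes called with si-A1 at 24 h went from 494 to 320, and EZH2 lost its call with si-A2 (adjusted p = 0.0185). At 48 h, with the block in place of the slide, 4 of the 5 calls with si-A1 were kept and no other of the 6 genes gained a call. Over all probes the block moved the calls at 48 h from 2761 to 1797 with si-A1, from 201 to 0 with si-A2 and from 654 to 257 between the knockdowns. Of the list genes called at 48 h, PAGE2 and, between the knockdowns, KLK2 lost their calls under the block and PCLAF, PCNA, CDCA7L, LIG1, RBBP7 and BRDT kept theirs. At 24 h MSMB lost its call under it (adjusted p = 0.0183). These list alternatives were chosen after seeing the data. Signal over background limits EZH2, DNMT3B and the second UHRF1 probe, and having 3 si-A2 arrays limits the comparisons at 48 h.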
